A study of Mus musculus with 6 samples.

Results

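The suppressors of cytokine signalling are 8 related genes in the mouse, Socs1 to Socs7 and Cish, and their rows were read in each of 11 deposited gene tables of haematopoietic stem cells (HSCs). All 8 were found, of 17068 genes listed. Their source was sorted marrow of Gfp-Lc3 mice, in which a fluorescent tag on LC3 marks autophagosomes, and RNA was sequenced from single cells in droplets. There were 6 libraries: old mice and young mice, each fasted for 24 hours and refed for 24 hours, fasted for 24 hours, or fed freely, with 1 library per group and the Gfp-Lc3 genotype in all of them. The tables do not separate the libraries. Each one compares 1 of 11 clusters, numbered 0 to 10, with all other cells of the pooled libraries, so no effect of age or feeding and no error between animals can be read from them. The clusters had been defined on the expression of these cells, so a fold of a cluster against the rest is given as a description, with no test.

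A SOCS protein carries an SH2 domain, which binds phosphorylated tyrosine on a receptor or kinase, and a C-terminal SOCS box, which recruits elongins B and C and cullin 5 to form a ubiquitin ligase. The genes are induced by the cytokines whose signal they shut down: a receptor activates JAK kinases, these phosphorylate STAT factors, and the STATs switch on SOCS genes as a brake. Cish and Socs2 are classic targets of STAT5, which acts downstream of several cytokine receptors in HSCs. Socs3 is a target of STAT3 and Socs1 of interferon signalling, while Socs4 to Socs7 act mainly on receptor tyrosine kinases and the insulin pathway.

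Promoter sequence was at hand for Cish, Socs1, Socs3 and Socs4, from RefSeq (build GRCm38.p6), in windows of 300 bases, 250 before an annotated start and 50 from it on. The letters TTCNNNGAA, the core of a STAT site (GAS), read the same on both strands and were searched in each. They stood at 2 places in the Cish window and 1 in the Socs3 window, and were not in the windows of Socs1 and Socs4. Of all 32851 promoter windows of this length, 8.30% held these letters. The form with 4 bases between, TTCNNNNGAA (6.95% of all windows), and the cyclic AMP element TGACGTCA (1.79%) were in none of the 4 windows. The windows of Cish (chr9:107296409-107296708, + strand) and Socs3 (chr11:117969317-117969616, - strand) are shown because these genes led in different clusters. Capitals mark the matches to TTCNNNGAA.
Cish: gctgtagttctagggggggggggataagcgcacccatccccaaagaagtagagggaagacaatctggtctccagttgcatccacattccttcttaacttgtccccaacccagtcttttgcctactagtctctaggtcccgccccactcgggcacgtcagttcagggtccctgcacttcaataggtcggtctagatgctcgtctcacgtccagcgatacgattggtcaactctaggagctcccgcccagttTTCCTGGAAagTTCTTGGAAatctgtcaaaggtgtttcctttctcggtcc
Socs3: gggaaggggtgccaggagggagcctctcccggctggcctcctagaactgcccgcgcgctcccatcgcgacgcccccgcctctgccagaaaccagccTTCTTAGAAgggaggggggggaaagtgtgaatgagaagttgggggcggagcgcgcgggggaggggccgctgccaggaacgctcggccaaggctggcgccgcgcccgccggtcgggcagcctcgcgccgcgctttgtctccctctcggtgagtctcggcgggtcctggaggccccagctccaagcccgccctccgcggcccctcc
In Cish the matches were TTCCTGGAA and TTCTTGGAA, beginning at bases 251 and 262 of the window, of which base 251 is the RefSeq start. In Socs3 the match was TTCTTAGAA, beginning at base 97. By GENCODE M21 these RefSeq starts lie inside the genes as annotated, 633 bases past the outermost start of Cish and 681 past that of Socs3. The nearest annotated transcript start is 51 bases further along for Cish, and for Socs3 it lies 85 bases before the RefSeq start. A match is a run of letters and not a measured binding site.

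The 11 clusters held 22378 cells, read from the deposited p-values, for clusters 7 to 10 from 1 side of the comparison only. Clusters 0 to 5 had 4904, 3955, 3910, 3802, 3747 and 1188 cells, together 96.1%, and clusters 6 to 10 had 310, 267, 173, 112 and 10. Single cells whose total could be read, through 19 genes each seen in 1 cell, had a median of 11707 counts (4239 to 22599). A cell with more counts is likelier to hold such a gene, so this median may lie above the usual depth. Molecule numbers based on it may then be too high. None of these cells lay in clusters 7 to 10, so the depth of those clusters was not read. Markers of long-term HSCs, 10 genes such as Hlf, Procr and Mecom, summed to 15.8 counts per 10000 over all cells, with every marker counted in clusters 2 and 9. Those of other cells summed to 1.30 for megakaryocytes, 1.25 for erythroid cells, 0.875 for endothelial cells, 0.378 for B cells, 0.195 for granulocytes or monocytes, 0.142 for T or NK cells and 0.0210 for mast cells or basophils. Only 3 of 5 T or NK cell markers and 3 of 4 mast cell or basophil markers were listed. Cd79b made up 0.368 of the B cell sum, and Nkg7 0.137 of the T or NK cell sum.

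Of 88 pairs of a member and a cluster, 4 were called higher and 13 lower. A gene was called when its fold in the authors' deposited table was at least 0.5 in size on the log2 scale and its deposited adjusted p was under 0.05, which served as a filter on noise because it treats cells as replicates. Over all genes and clusters 1.27% of pairs were called higher and 12.6% lower. Genes with no count in a cluster numbered 162 in cluster 0 and 4910 in cluster 10. Such genes can be called lower, so the shares of lower calls over all genes include them. Among genes at or above the median level, as all 8 members were, the shares were 1.47% and 3.88%. No member was without a count in any cluster. By gene, Socs2 was called in 5 clusters, Cish in 5, Socs3 in 3, Socs1, Socs5, Socs6 and Socs7 in 1 each and Socs4 in 0.

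**Figure D1:**
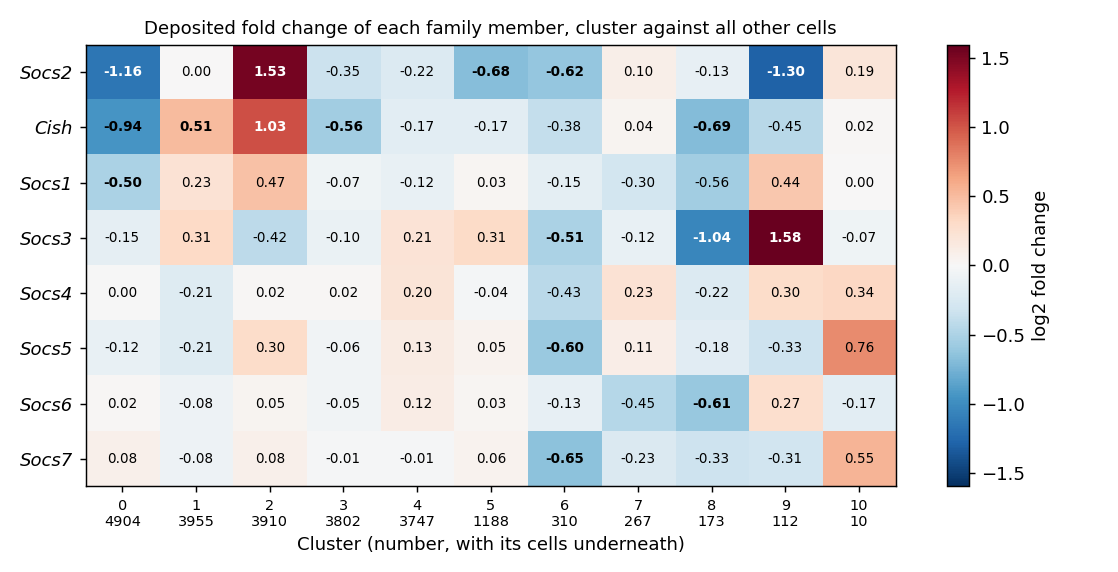
Log2 fold change of each member (rows) in each cluster (columns, with the number of cells under it) against all other cells, from the authors' deposited tables; red is higher, blue lower, and bold marks the called pairs. Socs2 and Cish stand out high in cluster 2 and low in cluster 0, Socs3 stands out high in cluster 9, and Socs4 has no call.

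Socs2 and Cish, the STAT5-induced members, were highest in cluster 2. Levels in each cluster, in counts per 10000, were rebuilt from the deposited mean, the deposited fold and the cluster sizes; they are molecule counts that are not scaled by gene length. Socs2, which restrains growth hormone receptor signalling, was at 0.817 in cluster 2, against 0.284 in all other cells. Over clusters 0 to 10, in that order, its level was 0.192, 0.378, 0.817, 0.307, 0.331, 0.240, 0.247, 0.403, 0.344, 0.154 and 0.430. Cluster 2 stood alone at the top, and the runner-up, cluster 10, had only 10 cells. The fold in the authors' deposited table was 1.53 in cluster 2, where Socs2 was the 4th gene from the top of the list. Places in the deposited lists do not follow the size of the fold. Among detected genes the fold of Socs2 in cluster 2 stood at percentile 98.8. With no spread over samples, neighbours in the order of clusters cannot be told apart.

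Cish, which dampens signalling by interleukin and erythropoietin receptors, was at 0.852 counts per 10000 in cluster 2, against 0.418 in all other cells. Its fold was 1.03 in the authors' deposited table, where it stood 10th from the top. Among detected genes that fold was at percentile 97.0. From cluster 0 to cluster 10 the Cish levels were 0.287, 0.653, 0.852, 0.354, 0.446, 0.440, 0.380, 0.507, 0.306, 0.363 and 0.499. Cluster 1 came after cluster 2, and cluster 0 was lowest. In cluster 2 the share of all genes called higher was 3.02%, and 2 of the 8 members were called, with 0 lower against a share of 3.49%. Socs1 had a fold of 0.47 there in the authors' deposited table, just under the size of a call, and Socs3 was at -0.42. Long-term HSC markers were called higher in 4 of 10 in cluster 2 and summed to 19.2 counts per 10000, against 11.8 to 19.983 elsewhere, with none at 0. Lower calls were made for 3 of 6 multipotent or cycling progenitor markers (sum 0.681), 3 of 6 megakaryocyte markers (0.883), 1 of 6 granulocyte or monocyte, 2 of 3 mast cell or basophil and 1 of 3 T or NK cell markers. In these lists Fcer1a and Il7r were at 0. Their part in the Socs2 and Cish values was not tested.

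Cluster 0 ran the other way for the same pair. Socs2 was at 0.192 counts per 10000 there, against 0.429 in all other cells, and Cish at 0.287, against 0.551. Their folds in the authors' deposited table were -1.16 and -0.94. The 2 genes stood at the 27th and 23rd place from its end, which is not an order by fold. Socs1, the inhibitor of JAK kinases that ends interferon responses, was also called lower, with 0.179 in cluster 0 against 0.253 in all other cells and a fold of -0.50 in the authors' deposited table, at the edge of the rule. So 3 members were called lower in cluster 0, where the share over all genes was 6.63%, and 0 higher (2.4%). The folds of clusters 0 and 2 are not separate measurements, since the rest of each includes the other. Markers of megakaryocytes were called higher in 6 of 6 genes in cluster 0, with a summed level of 2.09 counts per 10000 there and 0.883 to 1.599 in the other clusters, and no marker of the list was at 0. Multipotent or cycling progenitor markers were called higher in 4 of 6, at 1.59 in cluster 0 and 0.681 to 1.68 elsewhere, again with no marker at 0. Long-term HSC markers were called lower in 5 of 10 and summed to 12.004, against 11.8 to 19.983 elsewhere. Mast cell or basophil markers were called higher in 2 of 3, at 0.0460, against 0 to 0.0410 elsewhere, and T or NK cell markers in 1 of 3, at 0.347, against 0.0360 to 0.354. The part of these cells in the SOCS values was not tested.

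**Figure D2:**
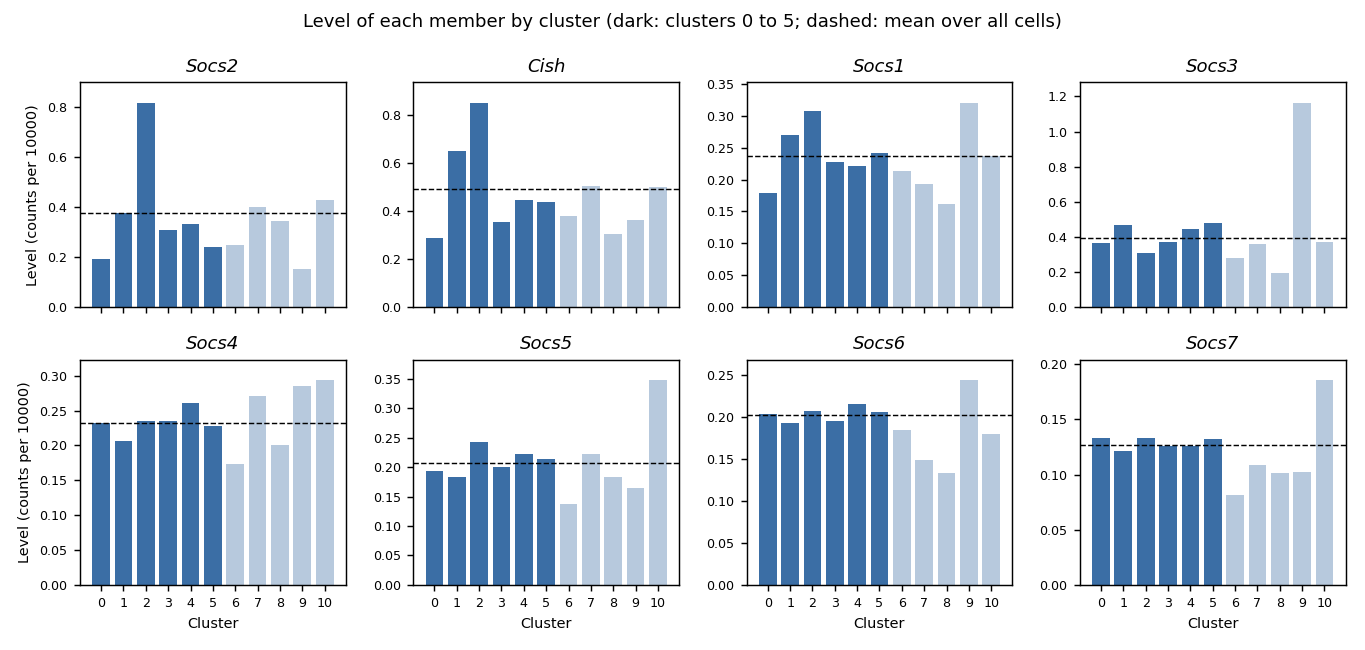
Rebuilt level of each member (counts per 10000, bars from 0, each panel with its own scale) in clusters 0 to 10, with the mean over all cells as a dashed line. Socs2 reaches 0.817 and Cish 0.852 in cluster 2, Socs3 reaches 1.16 in cluster 9, and Socs4 to Socs7 stay near their means in clusters 0 to 5.

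Socs2 and Cish did not follow each other everywhere. In cluster 1 Cish was at 0.653 counts per 10000, against 0.459 in all other cells, while Socs2 was at 0.378, against 0.377. The fold of Cish there was 0.51 in the authors' deposited table, just past the size of a call, and that of Socs2 was 0.00. Only 0.123% of all genes were called higher in cluster 1, 21 genes in all, and Cish was 1 of them; 0 members were lower there, where the share was 2.4%. In cluster 3 Cish was at 0.354, against 0.522, with a fold of -0.56 in the authors' deposited table, where it stood 17th from the end. Socs2 was at 0.307 in cluster 3, against 0.391, and its fold of -0.35 was not called, so 1 member was called lower (1.91% of all genes) and 0 higher (0.704%). In cluster 5 it was Socs2 that was called lower, at 0.240 against 0.385 and 14th from the end, with a fold of -0.68 in the authors' deposited table, while Cish was at -0.17. There 1 member was lower (4.88% of all genes) and 0 higher (0.135%). Across clusters 0 to 5 the log2 levels of Socs2 and Cish had a Pearson r of 0.90 (6 clusters), and across clusters 0 to 9 of 0.78 (10 clusters). This describes clusters of unequal size that were cut from the same 6 libraries.

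Socs3, which blocks JAK kinases at receptors of the interleukin-6 family, was highest in cluster 9. Its level there was 1.16 counts per 10000, against 0.390 in all other cells, and the fold was 1.58 in the authors' deposited table. Over clusters 0 to 8 Socs3 was at 0.363, 0.469, 0.308, 0.371, 0.445, 0.483, 0.278, 0.362 and 0.192, and it was at 0.374 in cluster 10. No cluster other than 9 reached 0.5. Socs2 was lowest in that same cluster, at 0.154, against 0.378 in all other cells, with a fold of -1.30 in the authors' deposited table. In cluster 9, 1 member was called higher and 1 lower, where the shares over all genes were 1.2% and 19.9%. The lower share includes genes with no count, of which there were 3350 in cluster 9. Among detected genes the fold of Socs3 stood at percentile 95.1 and that of Socs2 at 1.6. Cluster 9 held 112 cells. At the median of 11707 counts per cell, the Socs3 level would rest on about 153 molecules and the Socs2 level on about 20, so the Socs2 value is imprecise. A least-squares estimate of the cluster sizes gave 69.7 cells for cluster 9, which would make these about 95 and 12.

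Cluster 9 also had the highest summed level of immediate early genes, which are switched on within minutes of a stimulus or of handling. The list held 8 such genes and the chaperone genes Hspa1a and Hspa1b, which were not called there. The other 8 of the 10 genes were called higher, with Fos at 3.26, Egr1 at 2.35 and Junb at 2.25 in the authors' deposited table. They summed to 94.8 counts per 10000 in cluster 9, against 13.0 to 31.0 in the other clusters, and none was at 0. Across clusters 0 to 9 the log2 levels of Socs3 and of the list had a Pearson r of 0.91 (10 clusters), which was 0.74 without cluster 9 (9 clusters) and 0.39 over clusters 0 to 5 (6 clusters). For Socs2 the r with the list was -0.39 over clusters 0 to 9, 0.42 without cluster 9 and 0.47 over clusters 0 to 5. Its sign thus turned on cluster 9 alone. Whether these cells had been changed by handling was not tested. Long-term HSC markers were not called in cluster 9 in either direction.

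**Figure D3:**
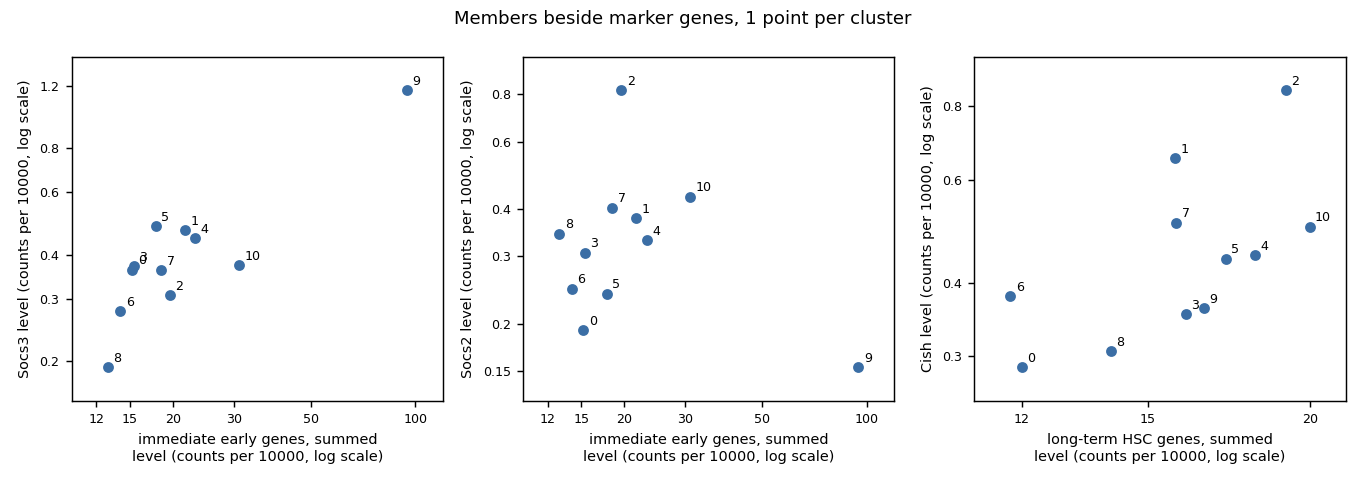
Rebuilt level of Socs3, Socs2 and Cish (vertical) against the summed level of immediate early or long-term HSC markers (horizontal), all in counts per 10000 on log scales, with 1 numbered point per cluster. Cluster 9 has the highest immediate early sum (94.8) and Socs3 level (1.16) and the lowest Socs2 level (0.154). Over clusters 0 to 9 the Pearson r of Socs2 with the immediate early list was -0.39, and without cluster 9 it was 0.42.

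Cluster 8, of 173 cells, had 3 members called lower and 0 higher, where the shares over all genes were 19.5% and 2.37%. The lower share includes genes with no count, of which there were 2961 in cluster 8. Socs3 was at 0.192 counts per 10000, against 0.395 in all other cells, Cish at 0.306, against 0.495, and Socs6, an adaptor that acts on Kit and the insulin receptor, at 0.133, against 0.202. Their folds in the authors' deposited table were -1.04, -0.69 and -0.61. Among detected genes these folds stood at percentiles 4.1, 7.2 and 8.6. At the median of 11707 counts per cell these levels would rest on about 39, 62 and 27 molecules, so they are imprecise. Socs1 had a fold of -0.56 in the authors' deposited table that passed in size and not the filter. Immediate early genes were called lower in 4 of 10, of which 1 had no count, and their sum of 13.0 was the lowest of any cluster. Long-term HSC markers were called lower in 4 of 10 (summed level 14.1, none at 0). Among the 6 multipotent or cycling progenitor markers, Mki67 (2.98) and Ccnb2 (4.62), both cell cycle genes, were called higher in the authors' deposited table. Of the 6 folds 4 were above 0, while Top2a (-0.11) and Cd48 (-0.76) were below it and not called. This list had its highest sum in cluster 8 (1.68). Most of it was Cd34 (1.12), which was not called, with Mki67 at 0.155 and Ccnb2 at 0.199. The part of any of these lists in the SOCS values was not tested. The detected genes of cluster 8 had a median fold of 0.13, so the members lay below a shift in the other direction.

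Cluster 6, of 310 cells, had 4 members called lower, Socs7 (-0.65), Socs2 (-0.62), Socs5 (-0.60) and Socs3 (-0.51) in the authors' deposited table. At the median of 11707 counts per cell their levels would rest on about 29, 90, 50 and 101 molecules, in that order. Lower calls took 26.2% of all genes there and higher ones 0.0469%, with 0 members higher. The lower share includes genes with no count, of which there were 2551 in cluster 6. Among detected genes the 4 folds stood at percentiles 13.9, 15.8, 16.7 and 22.6, in the same order. The detected genes had a median of -0.23, and centred on it none of the 4 members reached 0.5 in size (-0.42, -0.38, -0.37 and -0.28). Mitochondrially encoded RNA summed to 281 counts per 10000 in cluster 6, against 387 to 904 elsewhere, with 6 of 8 genes called lower. Erythroid genes summed to 5.96, against 0.472 to 2.82 elsewhere, with 0 of 5 called and none at 0. Immediate early genes were called lower in 5 of 10 (sum 14.1, Atf3 at 0), and long-term HSC markers in 4 of 10, with the lowest sum of any cluster (11.8, none at 0). The part of any of these in the SOCS values was not tested.

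The remaining clusters gave no call. In cluster 4 the members lay between -0.22 (Socs2) and 0.21 (Socs3) in the authors' deposited table, where 0.387% of all genes were called higher and 1.35% lower. In cluster 7 they lay between -0.45 (Socs6) and 0.23 (Socs4), beside shares of 1.84% and 24.3%. In cluster 10 they lay between -0.17 (Socs6) and 0.76 (Socs5), beside 1.79% and 27.6%. With 10 cells in cluster 10, each member there would rest on about 2 to 6 molecules at 11707 counts per cell.

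**Figure D4:**
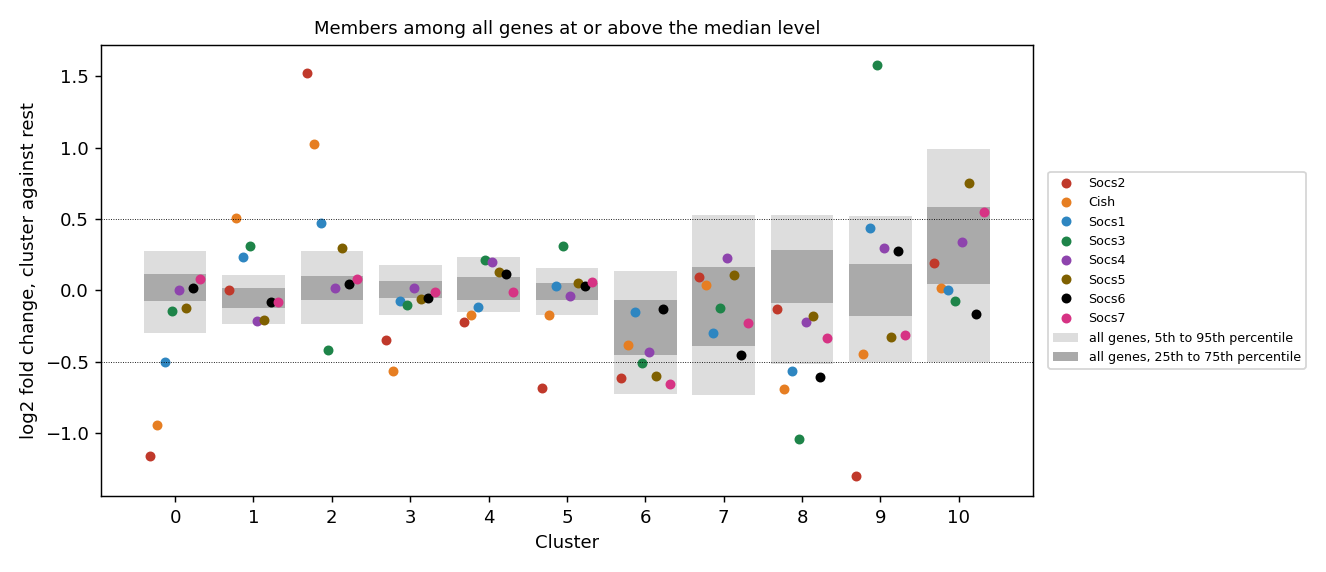
Log2 fold of the 8 members (points) in each cluster beside the spread of all genes at or above the median level (grey bars, 5th to 95th and 25th to 75th percentile), from the authors' deposited tables; dotted lines mark 0.5 in either direction. Socs2, Cish and Socs1 lie outside the bars of clusters 0 and 2, and in cluster 2 Socs5 lies above them and Socs3 below. Outside those of cluster 9 are Socs2 and Socs3. Clusters 1 and 8 have 3 and 4 members outside, and clusters 3, 4 and 5 have 2 each. All 8 lie within those of clusters 6, 7 and 10.

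Socs1 lay between these patterns. Its level was 0.308 counts per 10000 in cluster 2, against 0.222 in all other cells, and 0.320 in cluster 9, against 0.236, neither of them called. From cluster 0 to cluster 10 it was 0.179, 0.270, 0.308, 0.227, 0.221, 0.242, 0.213, 0.193, 0.161, 0.320 and 0.237. It was highest in cluster 9, then in cluster 2, and lowest in cluster 8, then in cluster 0. Over clusters 0 to 5 its log2 level had a Pearson r of 0.95 with that of Cish and -0.12 with that of Socs3 (6 clusters). Over clusters 0 to 9 these were 0.61 and 0.68 (10 clusters), so the order of the 2 depended on the clusters taken.

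Socs4 to Socs7 differed little among the large clusters. The highest over the lowest level in clusters 0 to 5 was 1.27 for Socs4 and 1.33 for Socs5, both known to act on the epidermal growth factor receptor. It was 1.12 for Socs6 and 1.1 for Socs7, which binds insulin pathway proteins. The same ratio was 4.25 for Socs2, 2.96 for Cish, 1.72 for Socs1 and 1.57 for Socs3. Socs4 ranged from 0.206 (cluster 1) to 0.261 (cluster 4) counts per 10000, Socs5 from 0.183 (cluster 1) to 0.244 (cluster 2), Socs6 from 0.193 (cluster 1) to 0.216 (cluster 4) and Socs7 from 0.121 (cluster 1) to 0.133 (cluster 2). In the small clusters Socs5 went down to 0.137 and Socs7 to 0.0812 in cluster 6, and Socs6 to 0.133 in cluster 8. Summed over the 8 genes, the family reached 3.10 counts per 10000 in cluster 2, against 2.27 over all cells. The sum was lowest in cluster 8, at 1.62, and was 1.78 in cluster 0.

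The genes lie on 7 chromosomes in mm10, by the GENCODE M21 annotation. Socs2 lies on chromosome 10 at 95385362 to 95417180, Cish on chromosome 9 at 107296026 to 107302784, and Socs1 on chromosome 16 at 10782240 to 10785536. Chromosome 11 holds both Socs3 (117966079 to 117970047) and Socs7 (97362551 to 97398542). The coding sequence of Socs1, Socs3, Socs4, Socs5 and Socs6 lies in 1 exon of the annotated transcript used, that of Socs2 in 2, of Cish in 3 and of Socs7 in 9. These transcripts encode 198 amino acids for Socs2, 212 for Socs1, 225 for Socs3 and 257 for Cish, and between 436 (Socs4) and 579 (Socs7) for the other members. The 4 shortest proteins were those of the genes whose levels ranged most among the large clusters.

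In cluster 2 none of the 11 JAK and STAT genes was called, nor any of 13 other inhibitors of cytokine signalling or of 10 partners of the SOCS box in the ubiquitin ligase. Their median folds were 0.03, 0.06 and 0.00, beside 0.02 over all genes. Over all genes 3.02% were called higher in cluster 2 and 3.49% lower. Of 30 JAK-STAT cytokine receptor genes 2 were called higher and 0 lower (median 0.07), the interleukin receptor genes Il10ra (0.58) and Il6ra (0.51) in the authors' deposited table. Of 17 further STAT5 target genes 1 was higher, the helix-loop-helix inhibitor Id1 (1.26), and 1 lower, the cell cycle kinase Cdk6 (-1.22), in the authors' deposited table (median -0.16). The STAT5 target Pim1 (-0.03), Stat5a (-0.21), Stat5b (-0.04) and Jak2 (0.03) were not called in the authors' deposited table; these were picked out after their values were seen. Of 18 other SOCS box genes 2 were lower and 0 higher (median 0.03), Asb2 (-2.85) and Spsb4 (-1.25) in the authors' deposited table, both rarely detected. Of 13 STAT3 targets 1 was higher, the growth factor gene Vegfa (0.71), and of 7 receptor tyrosine kinase and insulin receptor substrate genes 1 was lower, Flt3 (-0.75), in the authors' deposited table.

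In cluster 0, cytokine receptor genes were called lower in 5 of 30 and higher in 1 (median -0.07, beside 0.01 over all genes). Over all genes 6.63% were called lower in cluster 0 and 2.4% higher. The erythropoietin receptor gene Epor (1.08) was the higher one, and Il13ra1 (-3.12), Il10ra (-1.22) and the oncostatin M receptor gene Osmr (-0.77) were among the lower ones in the authors' deposited table. STAT5 targets went both ways, with 3 of 17 higher and 2 lower (median -0.03). Cdk6 (1.39) and Myc (0.52) were among the higher and Id2 (-0.89) and Id1 (-0.80) were the lower ones in the authors' deposited table. No JAK or STAT gene, other inhibitor or SOCS box partner was called. Of the STAT3 targets 1 of 13 was lower, Cebpb (-0.81), in the authors' deposited table (median -0.17).

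In cluster 9, 6 of 13 STAT3 targets were called higher and 1, with no count there, lower (median 0.50, beside -0.07 over all genes). The 4 with the largest folds were Fos (3.26), Junb (2.25), the stress gene Gadd45b (1.91) and Ier3 (1.51) in the authors' deposited table. Fos and Junb also stand on the immediate early list. STAT5 targets were higher in 3 of 17 and lower in 0 (median 0.12), Id1 (2.02), the survival gene Mcl1 (1.47) and Id2 (1.12) in the authors' deposited table. No JAK or STAT gene was called. Cytokine receptor genes were called lower in 5 of 30 and higher in 0, with Epor at -1.41, Csf2rb at -1.24 and Il4ra at -0.84 in the authors' deposited table and the other 2 without a count. Over all genes 19.9% were called lower in cluster 9 and 1.2% higher. The lower share includes genes with no count, so whether the lower receptor genes with a count were an excess cannot be read from it. The median fold of the receptor list was 0.08, with 18 of 30 above 0. Of the 7 receptor tyrosine kinase and insulin receptor substrate genes, Irs2 (1.15) was higher in the authors' deposited table and 1, with no count, lower. Of the 18 other SOCS box genes, Wsb1 (0.87) was higher in the authors' deposited table and 2, with no count, lower. Among the 10 SOCS box partners the cullin gene Cul2 (-1.34) was lower in the authors' deposited table, and none of 13 other inhibitors was called.

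**Figure D5:**
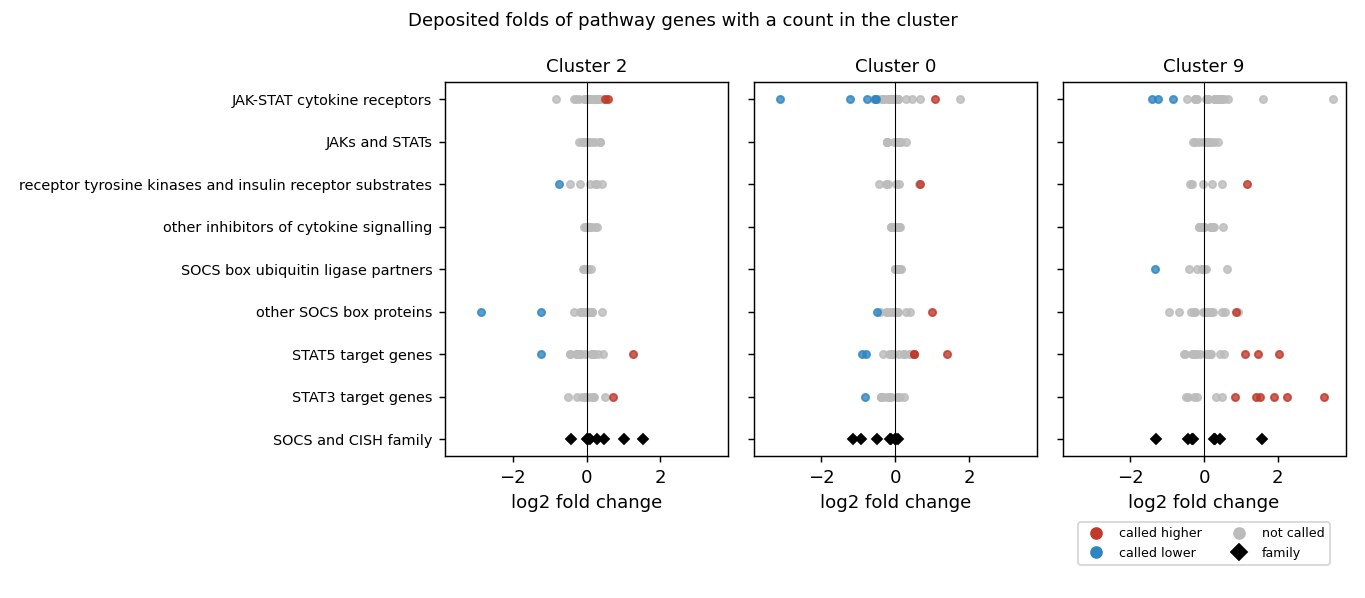
Log2 folds of the genes of 8 pathway lists (rows; red called higher, blue called lower, grey not called) and of the 8 members (black diamonds) in clusters 2, 0 and 9 against all other cells, from the authors' deposited tables; genes with no count in the cluster are left out. Red points gather among STAT3 targets in cluster 9 (6 of 13), while JAK and STAT genes have none in these 3 clusters.

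The authors' deposited pathway tables gave scores for the same cells. The KEGG JAK-STAT set had a log2 fold of 0.12 in cluster 2, the 3rd pathway from the top of 2922. In cluster 0 it was at -0.06 and in cluster 9 at 0.05, again from the authors' deposited pathway tables. Reactome growth hormone receptor signalling was at 0.15 in cluster 2 and at -0.07 in cluster 0, by the authors' deposited pathway tables. Reactome activation of STAT5 by erythropoietin was at -0.06 in cluster 2 and at 0.19 in cluster 0, by the authors' deposited pathway tables. Sets of this kind can hold SOCS genes, and members of pathways were not read here, so these scores are no separate support.

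Among 8241 genes at or above the median level with a count in each of clusters 0 to 9, those whose log2 level over clusters 0 to 9 was most like that of Socs2 were Ebi3, a subunit of interleukins 27 and 35 (Pearson r 0.95), Armcx6 (0.90) and Traf1, an adaptor of tumour necrosis factor receptors (0.89). Those most like Cish were Xbp1, a transcription factor of the unfolded protein response (0.94), Slfn2 (0.93) and the potassium channel gene Kcnk5 (0.92). For Socs3 they were the AP-1 gene Jund (0.95), Fbxo33 (0.95) and the stress gene Gadd45g (0.95), and for Socs1 Unc45b (0.96), Cracr2b (0.94) and the syndecan gene Sdc4 (0.94). The first for Socs4 to Socs7 were Adipor2 (0.98), Zfp106 (0.98), Zfp979 (0.97) and Slc39a10 (0.95). The highest of 8241 values over 10 points is large by selection. Over clusters 0 to 5 alone, 1 of the 24 genes picked in this way was picked again.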

How the data were processed

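The material was the deposited gene and pathway tables of 11 clusters, pooled over 6 libraries. Per the submitters' processing notes, Scanpy and the mm10 build were used; aligner, cell filters, doublet handling, clustering and test were not given in the sources used here. Each gene has, from the authors, a log2 mean (counts scaled to a total of 10000) and a log2 fold of the cluster against the rest, with a p-value over cells and its adjusted value, which equals the Benjamini-Hochberg value. In the deposited pathway tables the score is a signed statistic.

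Cluster sizes came from 19 genes seen in 1 cell, for which the deposited p-value, read as Welch's test, is set by cell numbers. Cluster levels were rebuilt from mean, fold and size. Rebuilt levels are approximate: weighted by size, those of a member added up to its mean within 1.84%. Both steps were tested on simulated cells whose p-values came from a t-test in Scanpy, so this cannot show which test the authors used. Genes with a fold under -10 have no count in that cluster.

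The members, lists and call rule were chosen with earlier results of these data known. Named genes were the 8 members, the 3 genes most like each, and up to 4 called genes per list in clusters with a called member, of which part is printed; 1 list and 2 genes are not reported here. No depth per library was at hand; counting error and differences between animals are not covered by any value. Sequences are RefSeq's. Python 3.11.15, pandas 2.3.3 and scipy 1.17.1 were used.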

Additional observations from a re-analysis of the deposited data

How the results depend on the processing

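Of the 88 member-cluster pairs, 4 were called higher. A fold of 0.25 in place of 0.5 raised this to 8. Of the 13 lower pairs 3 were left with a fold of 1, 8 with an adjusted p under 0.001 and 5 in clusters 0 to 5 alone. The other alternatives for these counts stayed within 1.5 times. Among the 17 called folds none changed sign when centred on the cluster's median or set against the unweighted mean of the other clusters among 0 to 5. Centring left 4 under 0.5 in size, all in cluster 6, and the second setting left 1, Cish in cluster 1 (0.46).

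Pathway list pairs, checked in the same way by alternatives added after seeing the data, were 35 higher and 99 lower. They were 89 and 168 with a fold of 0.25, 14 and 45 with a fold of 1, 107 and 152 with the fold alone, and 15 and 18 in clusters 0 to 5 alone. Without genes below the median level 50 were lower.

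Cluster sizes by least squares were 69.7 cells for cluster 9 against 112 as read from p-values, 131 for cluster 8 against 173 and 0.0 for cluster 10 against 10, so the sizes of the smallest clusters are uncertain. Since small clusters hardly weigh in the mean, no member level moved by more than 0.373%. Of the 24 genes most like a member, 7 were picked again by Spearman's rho. No paired analysis was possible because the tables hold no values per library. Leaving out a library was not possible for the same reason, and small clusters limit the depth.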

Other observations

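In cluster 7, of 267 cells, no SOCS or CISH gene was called, and genes of the machinery around them were. The genes named here were chosen after their values were seen. The ubiquitin ligase partners of the SOCS box were called lower in 5 of 10 (median -0.56), where 24.3% of all genes were called lower and the median fold of all genes was -0.17. They were the RING protein gene Rnf7 (-0.93), Nedd8 (-0.79), the elongin genes Elob (-0.78) and Eloc (-0.69), and Rbx1 (-0.67) in the authors' deposited table. The cullin gene Cul5 was not among them. Of 7 receptor tyrosine kinase and insulin receptor substrate genes 3 were higher, the insulin receptor gene Insr (0.68), Kit (0.57) and the insulin-like growth factor receptor gene Igf1r (0.54), in the authors' deposited table, where 1.84% of all genes were called higher. Another, Csf1r, had no count and was called lower. Mitochondrially encoded RNA summed to 904 counts per 10000 in cluster 7, against 281 to 434 in the other clusters, with 8 of 8 genes called higher. Its part in these values was not tested.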
